A study of Mus musculus with 12 samples.

Results

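The miR-23/27/24 miRNAs were examined in the retina and sclera of mice with form-deprivation myopia. The members were all mouse miRNA names on the array that start with mmu-miR-23a-, mmu-miR-23b-, mmu-miR-27a-, mmu-miR-27b- or mmu-miR-24-, whichever arm of the hairpin they come from. This gave 9 of the 696 mouse miRNA names. They are mmu-miR-23a-3p, mmu-miR-27a-3p, mmu-miR-27a-5p and mmu-miR-24-2-5p of the a cluster, mmu-miR-23b-3p, mmu-miR-27b-3p, mmu-miR-27b-5p and mmu-miR-24-1-5p of the b cluster, and mmu-miR-24-3p, which both clusters make.

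All groups were C57BL/6J mice at postnatal day 34. The myopic groups came from right eyes behind a frosted diffuser, worn for 10 days to deprive the retina of form vision, and the control groups came from the untreated left eyes. Whole retina and sclera were profiled in 4 groups (control retina, myopic retina, control sclera and myopic sclera) of 3 arrays each. According to the methods, each array held RNA pooled from 3 eyes, whereas the sample labels name single mice. The arrays were 1-colour miRNA arrays, on which the signals of the detected probes of a miRNA add up to its total gene signal, an intensity, and an undetected miRNA is listed at 0.1. The summed signal of all mouse miRNAs was between 591608 and 832784 on the retina arrays and between 200662 and 382687 on the sclera arrays. Control sclera 3 had the lowest sum and the fewest detected miRNAs, 274. The number of arrays limits the precision.

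MicroRNAs guide silencing complexes to messenger RNAs, mainly by pairing through the seed, a stretch near the 5′ end. The a and b clusters are paralogues that each carry a miR-23, a miR-27 and a miR-24 hairpin in a single transcript. They are best known for their roles in endothelial cells and blood vessel growth, including vessels of the retina and choroid, and in muscle and fat cell differentiation. The strand of a hairpin that is usually kept is the guide, which is the 3p arm in all of these miRNAs, and the 5p arm is the passenger. Since miR-24-3p is the same from both clusters, within miR-24 only the passenger arms can tell the loci apart.

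The mature sequences show which members share a seed, with bases 2 to 8 in capitals. Of the 9 members, 8 were matched in the RefSeq sequences (GRCm38.p6), and mmu-miR-23b-3p was missing. The miR-27 guides share a seed and the miR-24 passengers share another, while the seeds of miR-23a-3p and miR-24-3p were not found in another of the 8 matched members.
mmu-miR-27a-3p: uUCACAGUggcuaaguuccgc
mmu-miR-27b-3p: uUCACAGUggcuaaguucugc
mmu-miR-23a-3p: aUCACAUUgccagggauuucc
mmu-miR-24-3p: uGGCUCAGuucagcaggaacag
mmu-miR-24-1-5p: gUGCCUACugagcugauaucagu
mmu-miR-24-2-5p: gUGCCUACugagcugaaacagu

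The miR-27 guides differ at 1 base (C19U, with the base of miR-27a-3p first and positions counted from its 5′ end), and the miR-24 passengers share their first 16 bases. The seed of miR-24-3p also occurs in mmu-miR-5124b, mmu-miR-6369, mmu-miR-6410 and mmu-miR-6413, none of which was on the array. No name outside the members shared the seed of the miR-27 guides, of miR-23a-3p or of the miR-24 passengers in these sequences.

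The probes show how the array separates the paralogues, with the base that differs in capitals. These are the probes of equal length for miR-23 and for miR-27, as the deposited files give them.
mmu-miR-23a-3p probe: ggAaatccctggcaatg
mmu-miR-23b-3p probe: ggTaatccctggcaatg
mmu-miR-27a-3p probe: gcGgaacttagccact
mmu-miR-27b-3p probe: gcAgaacttagccact

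Each pair of probes differs at 1 base, A3T for miR-23 and G3A for miR-27 (the base of the a-cluster probe first, counted from the 5′ end of the probe). Binding of a paralogue to the probe of the other was not tested, so the signals of each pair may not be fully separate. In the array annotation (mm9), the probes of the a cluster match chromosome 8 from 86732465 to 86732795, a span of 331 bases. Those of the b cluster match chromosome 13 from 63401841 to 63402580, a span of 740 bases, and the miR-24-3p probes match both. By the gene names of RefSeq (GRCm38.p6), the b cluster lies within Aopep, a gene for an aminopeptidase, next to Fancc. The a cluster lies between the protein-coding genes Nanos3 and Zswim4.

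The guide strands were detected in both tissues on every array. MiR-23a-3p had total gene signals of 616, 782 and 1066 on the control retina arrays and of 666, 898 and 674 on the myopic retina arrays. In the sclera it had 4340.5, 5485 and 2280.1 in control eyes and 4013, 3345 and 3013 in myopic eyes. Every sclera array was thus brighter than every retina array for miR-23a-3p, although the sclera arrays had the lower summed signals. MiR-23b-3p had signals of 963, 1097 and 1396 in the control retina and of 1069.6, 1419 and 991 in the myopic retina. In sclera the signals were 3863, 4845 and 2119 without and 3556, 3095 and 2795 with form deprivation. Again no retina array reached the sclera.

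MiR-27a-3p, the a-cluster form of the miR-27 guide, had signals of 538, 606 and 923 in the control retina and of 569.7, 682 and 571 in the myopic retina. In the control sclera it had 2844, 3197 and 665, and in the myopic sclera 2491, 2263 and 1938. Without scaling, control sclera 3 therefore lay within the range of the retina arrays for miR-27a-3p. MiR-27b-3p was at 507, 553 and 736 in the control retina, and at 580.3, 764 and 494 in the myopic retina. The sclera arrays had 1514, 1745 and 479 without form deprivation and 1324, 1163 and 1001 with it. Here the signal of control sclera 3 was below all retina arrays. MiR-24-3p, the guide made by both clusters, ranged from 1426 to 2039 over the 6 retina arrays and from 2510.0 to 5754 over the 6 sclera arrays, without overlap.

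**Figure D1:**
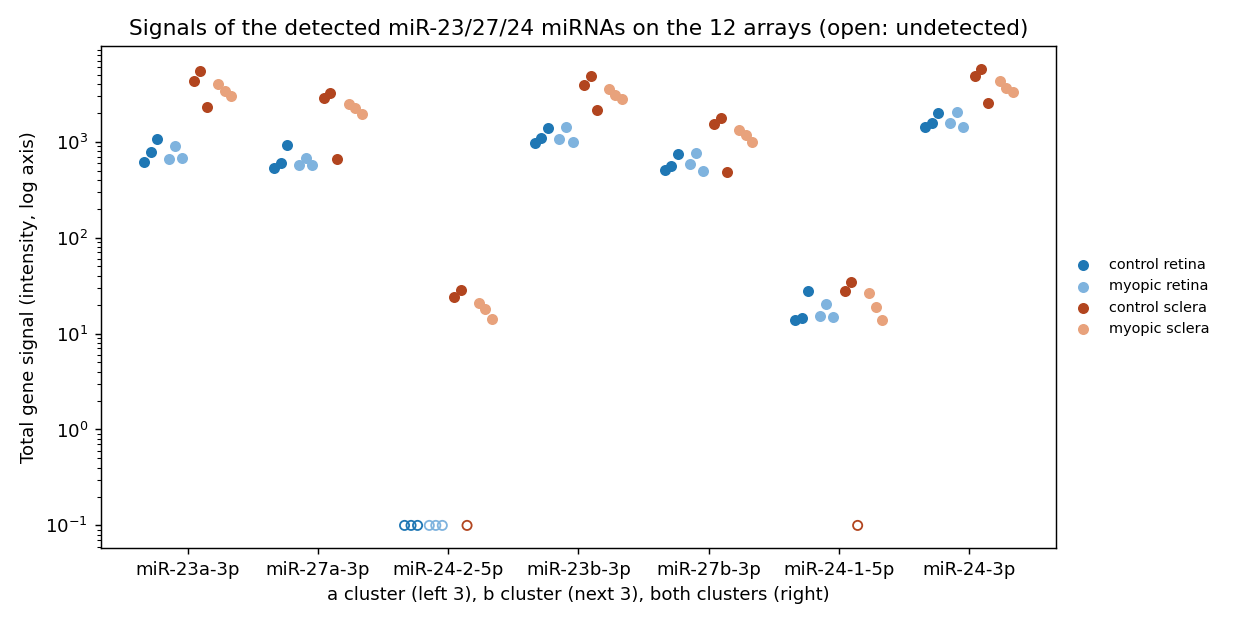
Total gene signal (intensity, log axis) of the 7 members detected on at least 1 array, with 1 point per array and 3 arrays in each of the 4 groups; open points are undetected and listed at 0.1. The guides of both clusters are brighter in the sclera apart from control sclera 3 for miR-27, and miR-24-2-5p is undetected on all 6 retina arrays.

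Of the 9 members, 5 were detected on all 12 arrays, which are the 3p guides. MiR-24-1-5p was detected on 11 arrays and miR-24-2-5p on 5. MiR-27a-5p and miR-27b-5p, the miR-27 passengers, were detected on no array, so they were not tested, which left 7 members among the 443 miRNAs tested. For the comparisons, a floor of 0.5 was applied to the total gene signals, followed by quantile normalization across the 12 arrays and log2, so that an undetected miRNA stands at -1. A miRNA was called where limma, a linear model that moderates the spread across miRNAs, gave at least a 2-fold difference with an adjusted p-value under 0.05. Quantile normalization gives the same value wherever a miRNA has the same rank, which makes some of the spreads 0.00.

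The guides of both clusters were lower in the retina than in the sclera of control eyes. MiR-23a-3p had a mean log2 signal of 9.23 ± 0.32 (SD, n = 3) in retina and 12.62 ± 0.04 (SD, n = 3) in sclera of control eyes, a difference of -3.40 (standard error 0.16, adjusted p = 7.5e-08, limma). The other guides differed by -2.66 (miR-27a-3p), -2.61 (miR-23b-3p), -2.50 (miR-24-3p) and -2.11 (miR-27b-3p), with standard errors from 0.13 to 0.21 and adjusted p-values up to 3.7e-06. Each of the 5 was lower in the retina on all 3 slides, and a slide held 1 array of each group. In whole tissue, fewer cells of a type and less RNA per cell cannot be told apart. In all, 6 of the 7 members tested were called lower in the control retina, where 23% of all 443 miRNAs tested were called lower. The count includes miR-24-2-5p, which no retina array detected and which was tested through its sclera arrays alone, and without it 5 were called. Without control sclera 3 the count was 7, and 7 in myopic eyes.

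In the myopic eyes the same 5 guides were lower in the retina. The differences were -3.68 (miR-23a-3p), -3.23 (miR-27a-3p), -2.90 (miR-23b-3p), -2.46 (miR-24-3p) and -2.24 (miR-27b-3p), with adjusted p-values in limma up to 7.3e-07. Each was lower on all 3 slides. Again 6 of the 7 members tested were called, or 5 without miR-24-2-5p, beside 26.4% of all miRNAs tested that were called lower in the myopic retina. For 5 members every retina array lay below every sclera array after normalization, which held for 24.8% of the miRNAs tested and for 38.6% of the 246 detected on all arrays. The comparisons are not independent, since they share the normalization and the estimate of the spread, and the study pairs control and myopic samples of the same number as eyes of the same animals. With only the compared groups in the fit, the adjusted p-values of the 5 guides went up to 0.0014 in control eyes and 3.8e-06 in myopic eyes.

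In the order of levels, the control and myopic sclera stood above the control and myopic retina for each guide, and the groups of 1 tissue were not called different. Among the 246 miRNAs detected on all arrays, 14 had a lower difference than miR-23a-3p between control retina and control sclera, and 34 had a lower difference than miR-27b-3p, the guide with the smallest difference. The median difference of the 5 guides was -2.61, beside 0.30 for all miRNAs tested and -0.24 for the 246.

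The scaling moved the size of these differences. The median of the 246 miRNAs between control retina and control sclera was 0.13 with scaling to the 75th percentile and 1.17 without normalization. MiR-23a-3p differed by -3.28 and -2.24 in these settings, and by -3.17 in the log2 values that the authors deposited. In those values it was at 9.16 ± 0.30 (SD, n = 3) in the control retina and 12.33 ± 0.17 (SD, n = 3) in the control sclera, and the other guides differed by -2.51 (miR-27a-3p), -2.30 (miR-23b-3p), -2.19 (miR-24-3p) and -2.03 (miR-27b-3p). The 5 guides stayed lower in the retina under each scaling run, in control and myopic eyes. For miR-27b-3p the call was lost without normalization, at -0.87 (adjusted p = 0.12, limma) in control eyes and at -0.94 (adjusted p = 0.086) in myopic eyes, and with normexp background correction in control eyes, at -0.63 (adjusted p = 0.30). Across all settings its adjusted p-values lay between 4.7e-10 and 0.30 in control eyes and between 5.4e-10 and 0.086 in myopic eyes. Of all calls in control eyes, 45.5% were lower in the retina, compared with 33.9% after scaling to the 75th percentile and 16.4% without normalization. In myopic eyes the shares were 44.8%, 29.5% and 13.6%, and 29.8% with normexp.

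**Figure D2:**
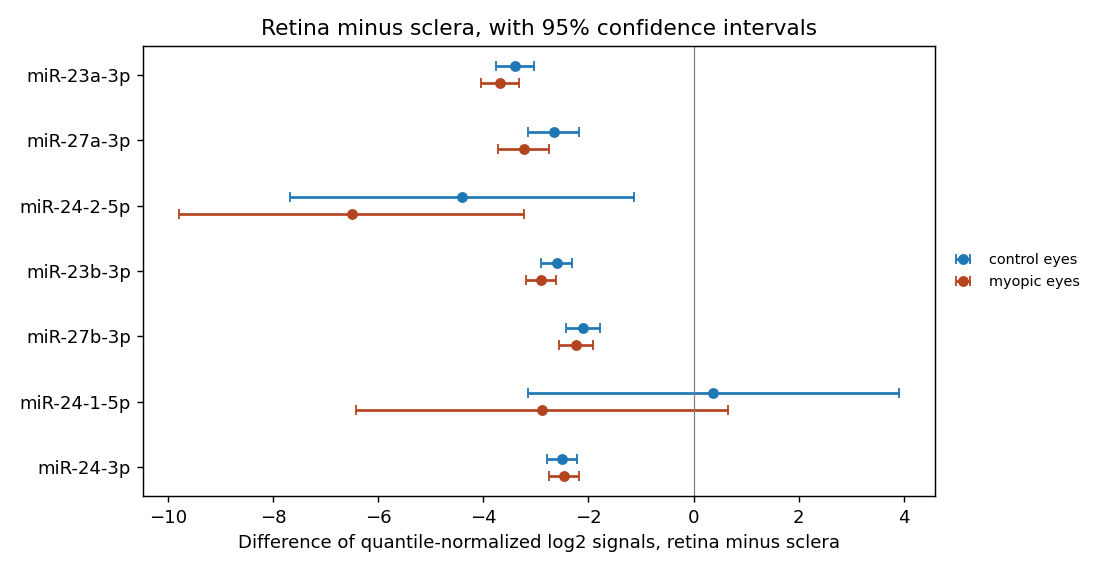
Difference of quantile-normalized log2 signals, retina minus sclera, in control and in myopic eyes, for the 7 members tested; points are limma estimates from 3 arrays a group and bars are 95% confidence intervals. The 5 guides lie between -3.68 and -2.11, and the wide intervals of the miR-24 passengers go with undetected arrays.

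The a and b guides of a family did not differ between the tissues by the same amount. Signals of different probes cannot be set against each other, since probes differ in brightness, but a shift of their ratio between arrays does not depend on that. The ratio of total signals, miR-23b-3p over miR-23a-3p, was 1.56, 1.40 and 1.31 in the control retina and 1.61, 1.58 and 1.47 in the myopic retina. The sclera arrays had 0.890, 0.883 and 0.929 without form deprivation and 0.886, 0.925 and 0.928 with it. No sclera array reached the retina. The ratio needs no scaling between arrays and is not a measure of relative abundance.

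On the normalized log2 scale, miR-23b-3p minus miR-23a-3p was 0.62 ± 0.17 (SD, n = 6) in the retina and -0.17 ± 0.13 (SD, n = 6) in the sclera. The shift of 0.79 had an exact permutation p = 0.0022 (two-sided), the smallest that 6 against 6 arrays can give, and p = 0.011 after adjustment over 10 comparisons of this kind. With total signals the shift was 0.71. Both eyes and both tissues came from 3 sets of animals, so these 12 arrays are not independent, and permuted within the replicate block the p-value was 0.0093, the smallest that this can give, for miR-23 and for miR-27 below. That permutation still counts the control and myopic eyes of a set as separate units. With a single shift for each set of animals, no exact p under 0.25 is possible. The a-cluster form was thus lower in the retina relative to the b-cluster form, with all 6 retina arrays above all 6 sclera arrays. The shift was 0.79 in control eyes and 0.78 in myopic eyes, where 3 against 3 arrays cannot give an exact p below 0.10.

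The miR-27 guides shifted in the same direction. The ratio of miR-27b-3p over miR-27a-3p was 0.943, 0.914 and 0.798 in the control retina and 1.02, 1.12 and 0.865 in the myopic retina. In the sclera it was 0.532, 0.546 and 0.720 in control eyes and 0.532, 0.514 and 0.517 in myopic eyes. Control sclera 3, the dimmest array, came nearest to the retina. The log2 difference was -0.09 ± 0.19 (SD, n = 6) in the retina and -0.86 ± 0.23 (SD, n = 6) in the sclera, a shift of 0.78 (exact permutation p = 0.0022, adjusted p = 0.011). The shift was 0.56 in control and 1.00 in myopic eyes, and whether these differ was not tested. With total signals it was 0.75 over all eyes.

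**Figure D3:**
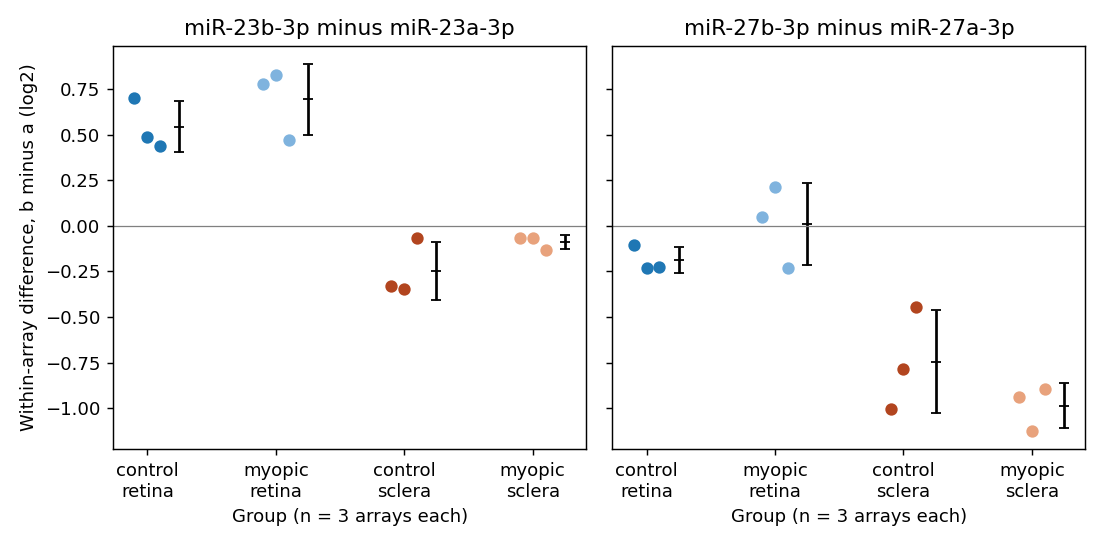
Within-array difference of quantile-normalized log2 signals, b-cluster miRNA minus a-cluster miRNA, for miR-23 (left) and miR-27 (right); each point is an array, and the black marks are the mean and SD of 3 arrays. In both families the 6 retina arrays lie above the 6 sclera arrays, with shifts of 0.79 and 0.78.

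Of the miR-24 passenger arms, miR-24-2-5p of the a cluster was undetected on all 6 retina arrays. It had signals of 23.9 and 28.6 on control sclera 1 and 2, was undetected on control sclera 3, and had 20.8, 17.9 and 14.3 in the myopic sclera. It was therefore a miRNA detected in the sclera alone, on 5 of 6 arrays. On signals scaled to the 75th percentile it was at least 10.4-fold higher in the myopic sclera than in the myopic retina and at least 2.18-fold higher in control eyes, with 2 of 3 control sclera arrays detected. With control sclera 1 and 2 alone the bound in control eyes was 8.29-fold, and 5.59-fold without scaling. Each retina array was placed at its lowest detected signal or at the brightest probe of the miRNA, whichever was higher. Without scaling, a setting chosen after seeing the data, the bounds over all 3 sclera arrays were 4.58-fold and 1.495-fold, so their size depended on the scaling. The limma fit also called it (adjusted p = 0.0028 in myopic and 0.026 in control eyes), but there its sclera values stand against a fixed value for undetected arrays with no spread, so these p-values do not measure a change in level. The call in control eyes was lost without control retina 1, 2 or 3 and without control sclera 1 or 2, with adjusted p-values from 0.054 to 0.089. It was also lost with no filter on dim miRNAs (adjusted p = 0.055), with the compared groups alone (adjusted p = 0.15) and with normexp background correction, where the difference was -0.12. In myopic eyes it was lost with normexp alone, at -0.17. The normexp correction added an offset of 50 to every spot, above the signals of this miRNA. That shrinks the differences of dim miRNAs, so this setting cannot decide whether miR-24-2-5p differed. The adjusted p-values in control eyes went from 2.1e-11 to 0.15.

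MiR-24-1-5p of the b cluster was detected in both tissues. Its signals were 14.0, 14.6 and 27.5 in the control retina, 15.3, 20.4 and 14.96 in the myopic retina, 27.4 and 34.3 on control sclera 1 and 2, and 26.5, 18.9 and 13.9 in the myopic sclera. On control sclera 3 it was undetected. The total signals of the tissues overlapped. After normalization the 5 detected sclera arrays (log2 5.40 to 5.89) lay above the 6 retina arrays (2.42 to 4.97), and the undetected control sclera 3 lay below them. With that array limma called no difference, with 0.38 (95% confidence interval -3.16 to 3.91) in control eyes and -2.88 (-6.42 to 0.66) in myopic eyes. The myopic difference does not use control sclera 3, but the estimate of the spread, shared by all groups, does. On the 3 slides the myopic differences were -3.23, -3.15 and -2.26. Without control sclera 3 miR-24-1-5p was called lower in the retina in both, at -1.89 (adjusted p = 0.011) and -2.87 (adjusted p = 4.9e-04). It was also called in both with array weights, at -1.77 and -2.99. In myopic eyes it was called with the floor at the dimmest detected signal (adjusted p = 0.037) and with the compared groups alone (adjusted p = 1.6e-04). Without normalization the difference in myopic eyes was -0.19, so its size depended on the scaling. In control eyes the adjusted p-value ranged from 0.0031 to 1.0 over the alternatives and the sign changed in 5 of 23, and in myopic eyes it ranged from 1.1e-04 to 0.91.

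Form deprivation was followed by no called change of a member in the retina. In limma 0 of the 7 members tested were called, and 0 had an unadjusted p-value under 0.05. The 7 include miR-24-2-5p, which was undetected on all retina arrays and had no value to compare. Of all 443 miRNAs tested, 0.226% were called and 130 had an unadjusted p-value under 0.05. With so few calls in this fit, 0 of 7 does not set the members apart from the other miRNAs. At the same thresholds for fold and adjusted p-value, the paper lists many more miRNAs as changed in the myopic retina. None of those is a member. Why the paper's list is longer was not tested. The largest difference of a guide was that of miR-27a-3p, from 8.95 ± 0.30 (log2, SD, n = 3) in the control to 8.63 ± 0.13 (SD, n = 3) in the myopic retina. It came to -0.32 (95% confidence interval -0.80 to 0.16, adjusted p = 0.35), with differences of -0.05, -0.45 and -0.47 on the 3 slides. MiR-23a-3p differed by -0.24 (-0.61 to 0.13), miR-27b-3p by -0.12 (-0.44 to 0.20), miR-23b-3p by -0.09 (-0.38 to 0.20) and miR-24-3p by -0.04 (-0.32 to 0.25). The intervals of all 5 guides lay within a 2-fold change in either direction. The median of the 5 was -0.12, as was that of all 443 miRNAs, and that of the 246 detected on all arrays was -0.21.

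With array weights from limma, which count noisy arrays less, 1 member was called, miR-24-1-5p at -1.39 (adjusted p = 0.015), beside 146 of all 443 miRNAs in that setting. Without weights its difference was -1.24 (-4.77 to 2.30, adjusted p = 0.70). It was -0.20 after scaling to the 75th percentile, -0.091 without normalization and -0.026 with normexp, each at an adjusted p of 1.0. The normexp offset of 50 was above the signals of miR-24-1-5p, which shrinks its difference. MiR-23a-3p and miR-27a-3p also had adjusted p-values under 0.05 with array weights, 9.1e-04 and 0.0024, at -0.34 and -0.38, which is less than 2-fold. Without control retina 1, miR-23a-3p was at -0.40 with an adjusted p of 0.046, and without control retina 3 at -0.083 with an adjusted p of 0.91. MiR-27a-3p was at -0.17 without control retina 3. For miR-23a-3p the adjusted p-value lay between 9.1e-04 and 1.0 over the settings. MiR-24-2-5p was undetected on all retina arrays and gives no difference.

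In the sclera of deprived eyes, limma likewise called 0 of the 7 members, with 0 at an unadjusted p-value under 0.05. Of all 443 miRNAs, 0% were called and 13 had an unadjusted p-value under 0.05. MiR-27a-3p differed by 0.25 (95% confidence interval -0.23 to 0.73), miR-23b-3p by 0.20 (-0.08 to 0.49), miR-23a-3p by 0.04 (-0.32 to 0.41), miR-27b-3p by 0.01 (-0.31 to 0.33) and miR-24-3p by -0.08 (-0.36 to 0.21). The intervals of the guides lay within a 2-fold change in either direction. With normexp background correction the difference of miR-27b-3p was 0.73 (adjusted p = 1.0), and its change in the retina minus that in the sclera was -0.80, beside -0.13. The difference of miR-27a-3p rested on control sclera 3 and was 0.03 without it. For miR-24-1-5p and miR-24-2-5p, the differences were 2.02 and 2.09 with the undetected control sclera 3, and without it they were -0.26 and -0.11.

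The change in the retina minus the change in the sclera, tested as an interaction, was also not called for any member, with 0 at an unadjusted p-value under 0.05 in limma. Of all 443 miRNAs, 0.226% were called and 36 had an unadjusted p-value under 0.05. It was -0.57 for miR-27a-3p (95% confidence interval -1.25 to 0.11, adjusted p = 0.38; -0.35 without control sclera 3), -0.29 for miR-23b-3p and -0.29 for miR-23a-3p. With array weights these 3 had adjusted p-values of 0.0092, 0.0040 and 0.0064 at differences under 2-fold, in a setting that called 156 of all 443 miRNAs, while up to 1.00 was reached in other settings. The within-array differences of the paralogues shifted by 0.15 (miR-23) and 0.20 (miR-27) between myopic and control retina and by 0.16 and -0.24 in the sclera. The groups overlapped in all 4 of these comparisons, with exact permutation p-values from 0.30 to 0.40, where 3 against 3 unpaired arrays cannot give less than 0.10. Paired by number, the retina shifts were 0.08, 0.34 and 0.03 for miR-23 and 0.15, 0.45 and -0.01 for miR-27, and with total signals 0.04, 0.17 and 0.17 for miR-23 and 0.11, 0.29 and 0.12 for miR-27. The sclera shifts were 0.26, 0.28 and -0.07 for miR-23 and 0.06, -0.34 and -0.45 for miR-27. With total signals they were -0.007, 0.07 and -0.002 for miR-23 and -0.002, -0.09 and -0.48 for miR-27. These paired shifts were not tested, and with 3 pairs no exact p under 0.25 is possible. With total signals, which were not normalized, the miR-27 ratios of the sclera groups did not overlap, with a shift of -0.19 (exact permutation p = 0.10). This rested on control sclera 3 at 0.720, and the nearest other arrays were at 0.5324 (control) and 0.5315 (myopic).

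**Figure D4:**
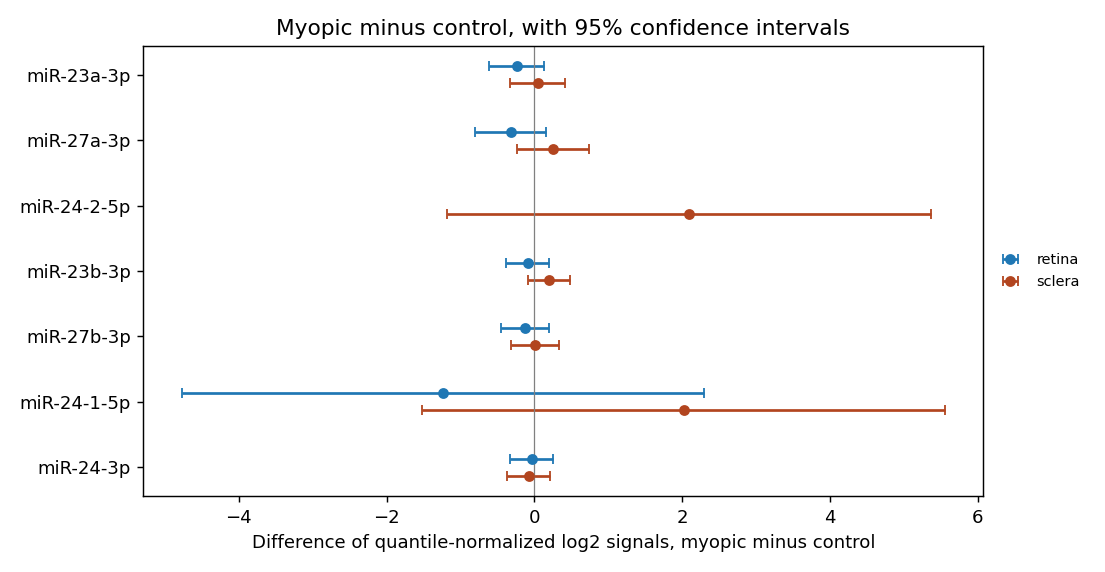
Difference of quantile-normalized log2 signals, myopic minus control, in the retina and the sclera; points are limma estimates from 3 arrays a group and bars are 95% confidence intervals. All intervals include 0; those of the guides stay within 1 on either side, and miR-24-2-5p has no value in the retina, where it was undetected.

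The probes of a guide gave like differences between the tissues. Each guide had 2 probes of 16 to 18 bases with 10 spots on the array. The shorter probe of each guide lies within the longer one, so their likeness is not independent evidence. After division by the 75th percentile of the array, the probes of miR-23a-3p were lower in the retina by -3.38 and -3.32 (log2, 6 retina against 6 sclera arrays), and those of miR-23b-3p by -2.62 and -2.63. The miR-27a-3p probes differed by -2.75 and -2.76, the miR-27b-3p probes by -2.001 and -2.04, and the miR-24-3p probes by -2.32 and -2.36. For miR-23 and miR-27, the probes of a guide were closer to each other than to those of its paralogue. The spots of a probe had a median coefficient of variation between 2.21% and 4.02% over the arrays. The 8 probes of the miR-27 passengers had mean signals below 0 in both tissues.

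Many other miRNAs had the pattern of the guides. Among the 241 other miRNAs detected on all arrays, the likeness was the Pearson correlation of normalized log2 values over the 12 arrays, given without a p-value because the arrays fall into 2 tissues. The most like miR-23a-3p were mmu-miR-140-5p (r = 0.998), mmu-miR-199a-3p (0.996) and mmu-miR-152-3p (0.996). For miR-23b-3p they were mmu-miR-140-5p (0.998), mmu-miR-140-3p (0.991) and mmu-miR-199a-3p (0.991), and for miR-27b-3p mmu-miR-140-5p (0.995), mmu-miR-199a-3p (0.994) and mmu-miR-148a-3p (0.994). MiR-140 is known from cartilage and miR-199a from mesenchymal cells. MiR-27a-3p was most like mmu-miR-148a-3p (0.997), mmu-miR-322-5p (0.994) and mmu-miR-411-5p (0.993), and miR-24-3p most like mmu-let-7b-5p (0.996), mmu-miR-140-3p (0.995) and mmu-miR-720 (0.993). For each guide, between 44 and 48 miRNAs had an r above 0.95, so such likeness was common.

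Markers of other cell types moved with the tissues as well. All 8 names of the retinal neuron and photoreceptor list were called higher in the control retina, as were 27.5% of all 443 miRNAs tested. The brightest were mmu-miR-124-3p, a neuronal miRNA, at 5.09 (adjusted p = 1.4e-04, limma), mmu-miR-96-5p at 4.22 and mmu-miR-183-5p at 3.87. Their summed signal, scaled to the 75th percentile, was between 151700 and 188900 on the 6 retina arrays. On the sclera arrays it was 12890, 13180 and 2346 in control eyes and 9408, 5167 and 11100 in myopic eyes. Retinal markers were therefore not absent from the sclera, and the lowest sum was on control sclera 3. The part of retinal RNA in the values of the guides in the sclera was not tested.

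Of the connective tissue list, 4 of 5 names were called lower in the control retina, beside 23% of all 443 miRNAs tested. The brightest were mmu-miR-199a-3p at -7.90, mmu-miR-199b-5p at -8.28 and mmu-miR-199a-5p at -7.78. The 4 include mmu-miR-214-3p, which was undetected on all retina arrays and was tested through its sclera arrays alone. The summed signal of the list was between 80.6 and 278 in the retina and between 21080 and 24850 in the sclera. Of the skeletal muscle list, 5 of 5 were called lower in the control retina, 1 of which was undetected there, beside 23% of all miRNAs tested. Mmu-miR-133b-3p, the brightest, was at -4.50, and the sums were 181.7 to 341.7 in the retina and 3073 to 5838 in the sclera. The endothelial miR-126 had both arms lower in the retina, mmu-miR-126-3p at -1.85 and mmu-miR-126-5p at -2.14, with sums of 920 to 1104 in the retina and 2788 to 3837 in the sclera. Markers of these cells were higher in the sclera together with the guides, and their part in the differences of the guides was not tested.

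Both measured names of the smooth muscle and pericyte list were lower in the control retina, mmu-miR-143-3p at -3.13 and mmu-miR-145-5p at -4.34, with sums of 36.8 to 93.6 in the retina and 460.4 to 577.5 in the sclera, and mmu-miR-145-3p was undetected on all arrays. Of the blood cell list, 3 of 5 were called lower, beside 23% of all miRNAs tested. They were mmu-miR-451, the brightest of the list, at -2.04, mmu-miR-223-3p at -4.84 and mmu-miR-142-3p at -3.40. Mmu-miR-144-3p, detected on 5 retina and 3 sclera arrays, went the other way at 1.34 and was not called (adjusted p = 0.59, limma). The sums were 211.4 to 330.9 in the retina and 1412 to 1696 in the sclera. Of the epithelial list, 6 of 9 measured names were called lower, beside 23% of all miRNAs tested. Of the 6, 3 were detected on no retina array and 2 on 1, so these calls rest on detection in the sclera. Mmu-miR-200a-5p at 1.84 and mmu-miR-141-5p at 1.29 went the other way and were not called, each detected on 4 retina and 0 sclera arrays. In myopic eyes 6 names were called lower and 2 higher in the retina. The brightest name of the list, mmu-miR-184-3p, was not called, at -2.23 (adjusted p = 0.18, limma). The sums varied from 121 to 3676 in the retina and from 1078 to 8631 in the sclera. The pigmented epithelium list went the other way, with mmu-miR-211-5p called higher in the retina at 1.16 and mmu-miR-204-5p not called at 0.45 (adjusted p = 0.19), and with sums of 12550 to 16370 in the retina and 4638 to 10640 in the sclera. The part of these cells in the results was not tested.

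The other miRNAs of vessels and hypoxia did not all follow the miR-23/27/24 guides. Of 24 names, 18 were tested, and in control eyes 10 were called lower and 3 higher in the retina, beside 23% and 27.5% of all miRNAs tested. The 10 include mmu-miR-214-3p, which no retina array detected and which was tested through its sclera arrays alone. The median of the list was -1.67, beside 0.30 for all miRNAs tested. Mmu-miR-199a-3p and mmu-miR-126-3p, given above, and mmu-miR-130a-3p at -0.83, which was less than 2-fold, were the brightest. In myopic eyes 10 were called lower and 4 higher, beside 26.4% and 32.5%. After form deprivation 1 of the 18 was called lower in the retina and 0 in the sclera, beside 0.226% and 0% of all miRNAs called. The name called was mmu-miR-145-5p of the smooth muscle and pericyte list, at -3.85 (adjusted p = 9.2e-04, limma). It was detected on 3 of the 6 retina arrays, none of them myopic, so the myopic retina stands at the fixed value for undetected arrays. The medians of the list were -0.23 and -0.07, beside -0.12 and 0.00 for all miRNAs.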

How the data were processed

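The authors deposited the scanner output of the 12 arrays, with each value an intensity that Agilent Feature Extraction had corrected for background and that was not normalized between arrays. A table of log2 values was deposited as well, made in Partek Genomics Suite 6.6 (per the labels) with a minimal signal of 0.5 and quantile normalization. They hold 7 of the 9 members, each column has a median of 5.74, and they correlated with the values computed here at 0.999 over 437 miRNAs. The methods name a removal of absent and outlying features for them, without its settings. The members and lists were chosen with earlier results of these data known.

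Total gene signals were floored at 0.5, quantile normalized over 12 arrays and fitted with limma 3.58.1 in R 4.3.3 in a single model of 4 groups (8 residual degrees of freedom), with Benjamini-Hochberg adjustment over the 443 miRNAs detected on at least 1 array. Permutation tests used scipy 1.17.1. Named miRNAs were all members, the 3 most correlated others for each guide, names sharing a seed, and up to 3 of highest mean signal from each list. From outside this rule, mmu-miR-214-3p and mmu-miR-145-3p were named after their values were seen, because they were undetected. In the lists, miR-1 was read as miR-1a, and miR-486 was not found on the array. The slide and the replicate number, which is the mouse number of the labels, are a single block, and the study pairs control and myopic samples by that number. Deviations of same-numbered arrays from their group means correlated between -0.46 and 0.59 over 246 miRNAs. Each group had the same position on every slide, so position and group cannot be told apart. The version of the scanner software in the file headers is not the one in the methods. Alternatives changed the normalization, background correction, floor, values, filter, array weights, moderation, groups fitted, block and arrays.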

Additional observations from a re-analysis of the deposited data

How the results depend on the processing

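The 5 guides were lower in the retina in control and myopic eyes in all 24 alternatives for each, and the shift of both pairs of paralogues kept its direction and an exact permutation p under 0.05 in all 19. With the replicate block the shifts of 0.79 and 0.78 had an exact permutation p of 0.0093, the smallest that 216 arrangements within slides can give, and the block changed no call of a member: the counts stayed at 6, 6, 0, 0 and 0. Without 1 array in turn the shifts were between 0.74 and 0.83 (miR-23) and between 0.70 and 0.85 (miR-27), and over the other settings between 0.54 and 0.85 (miR-23) and between 0.68 and 1.11 (miR-27). The number of members called lower in the retina was between 4 (normexp background correction) and 7 in control eyes and between 5 and 7 in myopic eyes. With array weights, 1 member was called between myopic and control retina, where otherwise 0 were.

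Only differences that were not called in the main fit changed sign. The reversed difference of miR-24-1-5p between control retina and control sclera was called without control sclera 3 and with array weights. MiR-24-1-5p was at 0.38 between control retina and control sclera, -0.093 with normexp, -0.44 with a floor at the dimmest detected signal, -1.77 with array weights, and between -1.89 and 1.59 without 1 array. The normexp offset of 50 shrinks the differences of such dim miRNAs. Without normalization the difference of the myopic from the control retina was 0.0092 for miR-23b-3p, 0.0054 for miR-24-3p and 0.028 for miR-27b-3p. Without 1 array, miR-23b-3p was between -0.17 and 0.012 and miR-27b-3p between -0.23 and 0.0040. In the sclera, scaling to the 75th percentile gave -0.097 (miR-23a-3p) and -0.078 (miR-23b-3p), and no normalization -0.14 and -0.12. Array weights gave -0.16 (miR-24-1-5p), 0.048 (miR-24-3p) and -0.059 (miR-27b-3p). Without 1 array the sclera differences were between -0.26 and 3.21 (miR-24-1-5p), -0.11 and 3.23 (miR-24-2-5p), -0.18 and 0.056 (miR-24-3p) and -0.061 and 0.087 (miR-27b-3p). For the change in the retina minus that in the sclera, no normalization gave 0.026 (miR-23a-3p) and 0.13 (miR-23b-3p), and miR-24-3p was at -0.0003 with the deposited log2 values and -0.12 with array weights. Without 1 array, miR-24-3p was between -0.092 and 0.14 and miR-24-2-5p between -3.23 and 0.11. With normexp, miR-27b-3p was at 0.73 in the sclera, beside 0.01, and at -0.80 for the change in the retina minus that in the sclera. The cause was not tested.

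Signals near detection limit the miR-24 passengers, whose probes were close to background. The small number of pools, position on the slide and cross-binding between paralogue probes limit the rest.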
